A study of Mus musculus with 8 samples.

Results

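The clustered histone genes are genes for histones H1, H2A, H2B, H3 and H4, most of them replication-dependent, that lie together in a few regions of the mouse genome. They were taken as the gene rows whose symbol begins with Hist1h, Hist2h, Hist3h or Hist4h, and were kept where at least 10 reads were counted over the 8 libraries. Of 68 such rows among 23420 gene rows, 60 were kept: 6 genes for H1, 14 for H2A, 16 for H2B, 12 for H3 and 12 for H4. The H2B rows include Hist3h2bb-ps, which is annotated as a processed pseudogene. The rule by symbol also takes in the testis-specific genes Hist1h1t and Hist1h2aa. By position, 48 of the 60 lay in the Hist1 cluster on chromosome 13, 8 in the Hist2 cluster on chromosome 3, 3 in the Hist3 cluster on chromosome 11, and Hist4h4 lay alone on chromosome 6. The cells were mouse embryonic stem cells (ESCs) of a 129 x C57BL/6 background, derived from blastocysts at day 5 and grown without feeder cells on gelatin with serum and leukaemia inhibitory factor at 1000 U per ml. They were wild type (IPO13+/+) or carried a knockout of the gene for importin 13 (IPO13-/-), a receptor that moves proteins across the nuclear envelope in either direction. Each genotype was either left untreated (WT-NS, KO-NS) or given 125 µM hydrogen peroxide (H2O2) over 1 h with 2 h of recovery in clean medium (WT-ST, KO-ST), with 2 libraries in each of the 4 groups. Each genotype is described as a single line, so that the knockout and any other difference between the lines cannot be told apart.

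Replication-dependent histone genes supply the protein on which newly copied DNA is packed, and are transcribed mainly in S phase. Their mRNAs are the known exception among animal mRNAs in ending not in a poly(A) tail but in a short stem-loop, which is bound by the stem-loop binding protein Slbp and cut just downstream with the help of the U7 small nuclear RNA. Some members also use a downstream poly(A) signal, mostly in cells that have left the cycle. The libraries were made with a kit that selects poly(A) RNA, so the counts here describe the histone RNA that such a preparation captured, and not the whole histone mRNA of the cell.

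The stem-loop was found in the annotated transcripts of 41 of the 60 genes, beginning 21 to 54 bases after the stop codon (median 31). A gene of each form is shown, with the 16 bases of the stem-loop in capitals and 5 bases on either side in lower case, read from the GENCODE M21 transcripts (GRCm38) in the 5′ to 3′ direction. They are shown because they define the 3′ end by which these RNAs are normally made, and because the forms differed by histone.
Hist1h1c: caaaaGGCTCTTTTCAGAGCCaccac
Hist1h1t: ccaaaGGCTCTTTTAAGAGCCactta
Hist1h3g: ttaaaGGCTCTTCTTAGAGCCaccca
Hist2h2ac: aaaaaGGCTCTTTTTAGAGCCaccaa
Hist1h4d: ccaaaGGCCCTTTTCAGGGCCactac
Hist1h4i: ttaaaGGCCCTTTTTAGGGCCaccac
Hist1h4b: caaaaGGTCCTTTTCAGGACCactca
Hist1h4a: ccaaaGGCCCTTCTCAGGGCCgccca
The form of Hist1h1c was held by 22 of the 41 genes, for H1, H2A, H2B and H3, and the form of Hist1h1t by 6 genes for H1, H2B and H3. The form of Hist1h4d was held by 6 genes, all for H4, and those of Hist1h4i and Hist1h4b by 2 H4 genes each. The forms of Hist1h3g, Hist2h2ac and Hist1h4a were each held by that gene alone. For the other 19 genes no stem-loop was found in the annotated transcript. Among these were Hist1h1b, Hist2h2bb, Hist1h2an and Hist1h3i, whose annotated models stop at the stop codon, and Hist1h1a, whose model ends 48 bases after it.

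The 8 libraries held 60397877 to 73789079 counted reads, in which a level of 3 counts, in counts per 1000000 reads (CPM), is 0.0407 to 0.0497. The targeted gene, Ipo13, had 4716 to 4928 counts in the 4 IPO13+/+ libraries and 1555 to 1965 in the 4 IPO13-/- libraries, and its level in untreated IPO13-/- cells was 0.368 times that of IPO13+/+ cells. All 10 ESC marker genes were detected, and their summed level ranged from 6250 to 7490 CPM over the libraries. Their changes after H2O2 are given with the other markers below. The labels do not say whether the libraries of a group came from separate cultures, so the p-values here measure only the spread between those libraries.

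Levels of the clustered histone genes were low. Their summed level was 40.5 to 53.7 CPM in each library, against 2410 to 2660 CPM for 14 listed histone variant genes, most of whose mRNAs are polyadenylated. On the scale of CPM per kb of exon, averaged over all libraries, Hist1h4i was highest at 11.4, followed by Hist1h2bc at 5.92 and Hist1h1c at 3.26, and the median of the 60 genes was 0.491. On the same scale the variant genes H2afz, H3f3b and H2afx, which encode H2A.Z, H3.3 and H2A.X, stood at 391, 248 and 187. The 10 clustered genes with the highest level per kb held 60.1% of the summed level per kb. The 3 highest H2A genes were Hist1h2af at 2.24, Hist3h2a at 1.97 and Hist1h2ae at 1.58 CPM per kb. For H2B, Hist3h2ba at 2.45 and Hist1h2bj at 2.24 followed Hist1h2bc. The H3 genes were led by Hist1h3c at 1.89, Hist1h3a at 1.17 and Hist1h3g at 1.09, and the H4 genes after Hist1h4i by Hist1h4b at 0.876 and Hist1h4k at 0.814. Among the H1 genes, Hist1h1a at 2.05 and Hist1h1b at 1.04 followed Hist1h1c. The level per kb of Hist1h1d, 0.16, rests on an annotated model of 7425 bases, far longer than those of the other H1 genes.

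Copies of these genes are close in sequence, and a read that matches more than 1 copy cannot be placed. The share of a transcript's 100-base words that also occur at another gene locus was 31.2% in the median of the 60 genes and ranged from 0 to 92%. The 7 rows with no count in any library, Hist1h2bq, Hist1h2br, Hist1h2ao, Hist1h2ap, Hist1h4m, Hist2h2aa1 and Hist2h2aa2, shared 85.8 to 100% of their words with other loci, so that their lack of counts does not show a lack of RNA. The remaining row, Hist1h2ba, which encodes a testis-specific H2B, had 5 counts in all and was left out. Just above the limit of 10 counts stood Hist2h2ab with 11 and Hist1h2aa with 13. Of the 60 genes, 20 also overlapped another gene model by position, and the sources used here do not say whether reads were counted by strand. Values of genes with a large share of repeated sequence or overlap are therefore uncertain as values of that single gene.

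**Figure D1:**
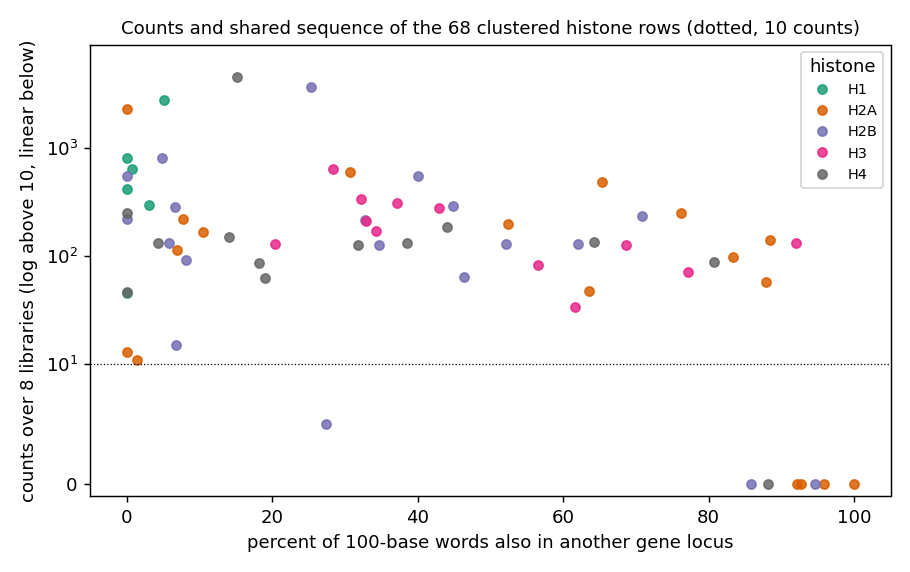
Counts summed over 8 libraries against the percent of each transcript's 100-base words found at another locus, for the 68 rows, coloured by histone. The 7 rows at 0 counts all lie at 85.8% or more, while genes with counts lie anywhere between 0 and 92%.

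In IPO13+/+ cells, 13 of the 60 clustered histone genes rose after H2O2 and none fell. The 13 were Hist1h1a, Hist1h1b and Hist1h1d for H1, Hist1h2an and Hist2h2ac for H2A, Hist1h2bg, Hist1h2bm, Hist1h2bn and Hist2h2bb for H2B, and Hist1h3d, Hist1h3f, Hist1h3i and Hist2h3c2 for H3. No H4 gene was among them. All 13 rose at least 2-fold, with log2 fold changes of 1.05 to 2.94. Calls are at a false discovery rate (FDR) below 0.05 in edgeR's quasi-likelihood test, adjusted over all 19424 genes tested. The 13 are 21.7% of the 60, where 11.5% of all genes tested rose, and where 2.75% of all genes rose at least 2-fold. Among the 17081 genes with at least 10 counts, the limit set for the 60, 13% rose. Of all genes tested 13.8% fell.

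The H1 genes for linker histones, which bind the DNA between nucleosomes, gave the lowest FDR values. Hist1h1a (chr13:23763666-23764406, plus strand), Hist1h1b (chr13:21779883-21780625, minus strand), Hist1h1d (chr13:23553262-23560686, plus strand) and Hist1h1c (chr13:23738808-23740367, plus strand) are single-exon genes of the Hist1 cluster in GRCm38. Hist1h1a had 54 and 53 counts in WT-NS and 135 in each WT-ST library. Its level rose 2.52-fold (log2 fold change 1.33 ± 0.16 SE, n = 2 per group, edgeR FDR 1.95e-07), and the groups lay far apart. Hist1h1b had 30 and 32 counts before and 83 and 95 after treatment, a rise of 2.86-fold (1.52 ± 0.19 SE, edgeR FDR 7.71e-07). Hist1h1d went from 47 and 61 counts to 129 and 132, a rise of 2.41-fold (1.27 ± 0.15 SE, edgeR FDR 2.67e-07). Each of these 3 genes shares under 1% of its words with another locus. Hist1h1c, the H1 gene with the highest level, had 335 and 389 counts before and 326 and 332 after, and its log2 fold change of -0.14 ± 0.09 (SE) did not pass the test.

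Leaving aside genes that never reached 10 counts in both libraries of some group, the 3 highest fold changes belonged to Hist2h2bb, Hist1h2an and Hist2h2ac. Hist2h2bb, an H2B gene, had 8 and 16 counts in WT-NS and 48 and 57 in WT-ST, and rose 4.34-fold (2.12 ± 0.30 SE, edgeR FDR 4.5e-06). Its model is wholly covered by those of Gm20628 and Gm42743, so reads of these genes may be included. The H2A gene Hist1h2an had 7 and 5 counts before and 21 and 24 after (1.88 ± 0.43 SE, edgeR FDR 0.00147), and shares 83.3% of its words with other loci. Hist2h2ac, also for H2A, had 4 and 11 counts before and 29 and 22 after (1.75 ± 0.42 SE, edgeR FDR 0.00252). The untreated and treated libraries did not overlap for any of these 3 genes. The largest fold change of all, for the H3 gene Hist2h3c2, rests on 2 counts against 17, a ratio of 8.73 with a 95% exact interval of 2.07 to 77.9 that covers counting error only. Its call was lost without any 1 of the 4 IPO13+/+ libraries (edgeR FDR 0.062 to 0.086), and that of Hist2h2ac without WT-ST replicate 1 (0.055). Those of Hist1h2bg (0.058 without WT-NS replicate 1), Hist1h3f (0.086 without WT-NS replicate 1, 0.15 without WT-ST replicate 1) and Hist1h2bn (0.12 without WT-NS replicate 2, 0.22 without WT-ST replicate 2) were lost as well, and the other 8 were kept without any single library.

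Of the 60 genes, 54 had a log2 fold change above 0, and the median was 0.56 (quartiles 0.21 and 0.97), where the median of all genes tested was 0.00. In 43 of the 60, or 71.7%, both WT-ST libraries were higher than both WT-NS libraries on the CPM scale, where 25.2% of all genes tested showed this order. Hist1h4i and Hist1h2bc held the most counts. Hist1h4i had 539 and 608 counts before and 608 and 648 after, and Hist1h2bc had 432 and 465 before and 491 and 510 after, and neither passed the test.

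**Figure D2:**
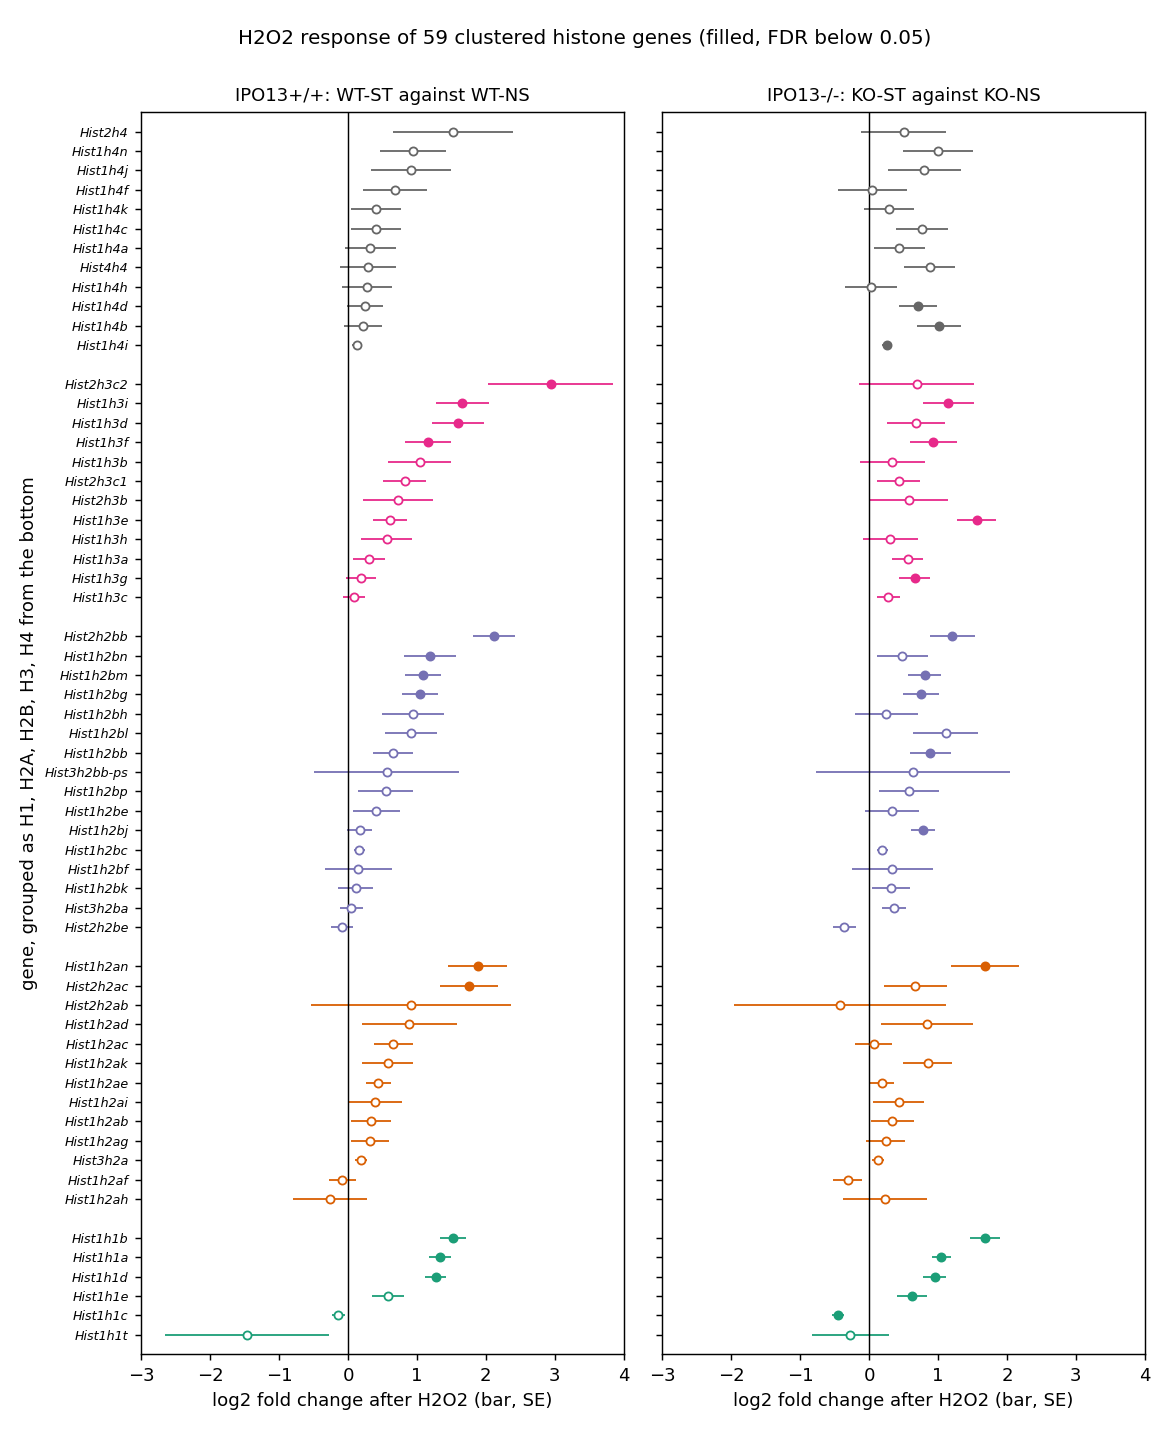
Log2 fold change after H2O2 with its SE for each gene in IPO13+/+ (left) and IPO13-/- cells (right), grouped by histone and ordered within it by the IPO13+/+ value, with filled points at FDR below 0.05. Of the 60 genes Hist1h2aa is not drawn, as it has no counts in IPO13+/+ cells. Most points lie to the right of 0 in both panels, and on the right Hist1h1c is the filled point below 0.

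In IPO13-/- cells, 17 of the 60 clustered histone genes rose after H2O2 and 1, Hist1h1c, fell. The 17 are 28.3% of the 60, where 14.9% of all genes tested rose, and 1 of 60 is set against 14.4% of all genes that fell. Among the 17081 genes with at least 10 counts, 17% rose. By histone, 4 genes for H1, 1 for H2A, 5 for H2B, 4 for H3 and 3 for H4 rose. At least 2-fold rises were seen in 7 of them, where 2.52% of all genes tested reached this: Hist1h1a, Hist1h1b, Hist1h2an, Hist2h2bb, Hist1h3e, Hist1h3i and Hist1h4b. The count of 17 depended on the tool, and was 11 with limma-voom and 7 with DESeq2, where the count past 2-fold was 4. It depended on single libraries as well, and was 6 without KO-NS replicate 1, 11 without KO-NS replicate 2 and 9 without KO-ST replicate 1. The count of 7 was 4 without KO-NS replicate 1 and 4 without KO-ST replicate 1. Hist1h1a, Hist1h1b and Hist1h3e kept their calls without any single library.

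Hist1h1b had 28 and 16 counts in KO-NS and 64 and 66 in KO-ST, and rose 3.21-fold (1.68 ± 0.22 SE, n = 2 per group, edgeR FDR 1.21e-06). Hist1h1a went from 78 and 71 counts to 129 and 155, a 2.07-fold rise (1.05 ± 0.14 SE, edgeR FDR 1.87e-06). Hist1h1d had 50 and 47 counts before and 89 and 83 after, a rise of 1.93-fold (0.95 ± 0.17 SE, edgeR FDR 9.01e-05). All 3 were thus separated by treatment in this genotype as well, with no overlap between the groups. Hist1h3e, for H3, had 22 and 13 counts before and 52 and 43 after (1.56 ± 0.28 SE, edgeR FDR 7.87e-05). Hist1h2an had 5 counts in each KO-NS library and 17 and 13 in KO-ST (1.68 ± 0.49 SE, edgeR FDR 0.0102), a call that was lost without KO-NS replicate 1 (FDR 0.095) or KO-ST replicate 1 (FDR 0.08). Hist1h4i, the H4 gene with the highest level, had 542 and 443 counts before and 552 and 534 after, a small rise of 1.2-fold (0.26 ± 0.07 SE, edgeR FDR 0.00683) that missed the threshold without KO-NS replicate 1 (FDR 0.057).

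Hist1h1c fell, where 4 other H1 genes rose. Its counts were 446 and 370 in KO-NS and 266 and 281 in KO-ST, and it fell to 0.73 times its level (-0.45 ± 0.09 SE, edgeR FDR 0.000187). This call was kept under every alternative setting run. Over all 60 genes 55 had a log2 fold change above 0, the median was 0.57 (quartiles 0.28 and 0.82), and in 36 of 60, or 60%, both KO-ST libraries were higher than both KO-NS libraries, where 29.9% of all genes tested showed this order.

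**Figure D3:**
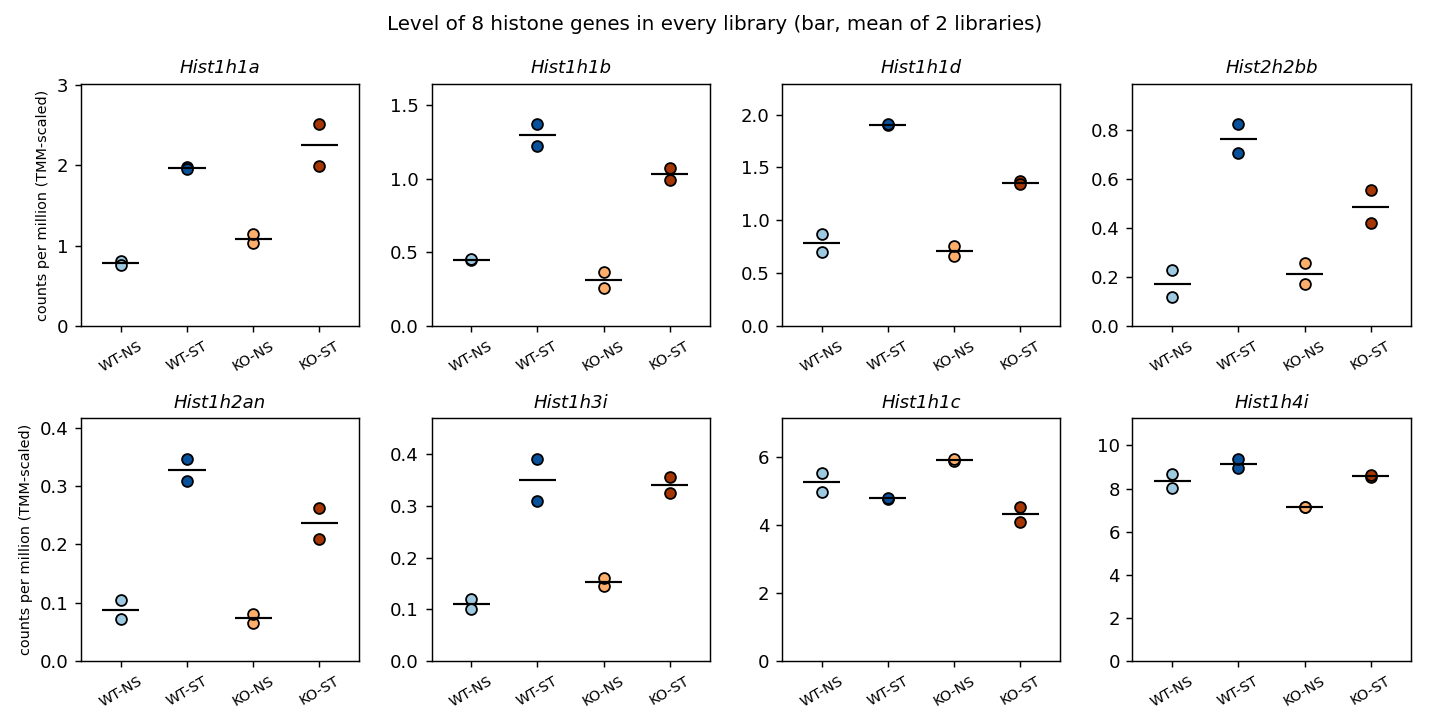
Level in CPM, scaled by TMM, of 8 genes in each of the 8 libraries, with a bar at the mean of each group and each axis starting at 0. The first 6 genes lie higher in both treated groups than in the untreated groups of the same genotype, Hist1h1c lies lower in KO-ST than in KO-NS, and Hist1h4i changes by 1.2-fold at most.

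Whether the H2O2 response differed between the genotypes was tested directly, as the IPO13-/- response minus the IPO13+/+ response. None of the 60 genes passed this test at FDR below 0.05 in edgeR, limma-voom or DESeq2 (which gave no adjusted p for 49 of the 60), while 2.71% of all genes tested passed it in edgeR. At an unadjusted p below 0.05 there were 3, named after their values were seen. These were Hist1h1c (-0.32 ± 0.12 SE), Hist1h2bj (0.61 ± 0.25 SE) and Hist1h3e (0.95 ± 0.38 SE), with edgeR FDR of 0.189, 0.22 and 0.216. The median SE of the difference was 0.51 on the log2 scale, so that for most of these genes a difference of less than 2-fold was not detectable at this depth. Rises passed the test in both genotypes for 9 genes, in IPO13+/+ cells alone for 4 and in IPO13-/- cells alone for 8, and for none of these 12 was the difference itself past the threshold.

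Summed over its members, each histone was higher after H2O2 in both genotypes. The 12 H3 genes had summed levels of 3.61 and 4.3 CPM in WT-NS and 5.89 and 5.83 in WT-ST, a ratio of 1.48, and 3.9 and 3.06 CPM in KO-NS against 5.5 and 5.46 in KO-ST, a ratio of 1.58. The H1 ratio was 1.37 in IPO13+/+ and 1.13 in IPO13-/- cells, that of H2A 1.25 and 1.14, that of H2B 1.25 and 1.26, and that of H4 1.15 and 1.28. The sums are led by the few genes with the most counts, and the H1 sum includes Hist1h1c, which did not rise. Summed over all 60, the level was 42.3 ± 2.56 CPM in WT-NS and 53.6 ± 0.153 in WT-ST, and 42 ± 1.12 CPM in KO-NS and 52 ± 0.272 in KO-ST (SD, n = 2). No test was made on these sums.

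**Figure D4:**
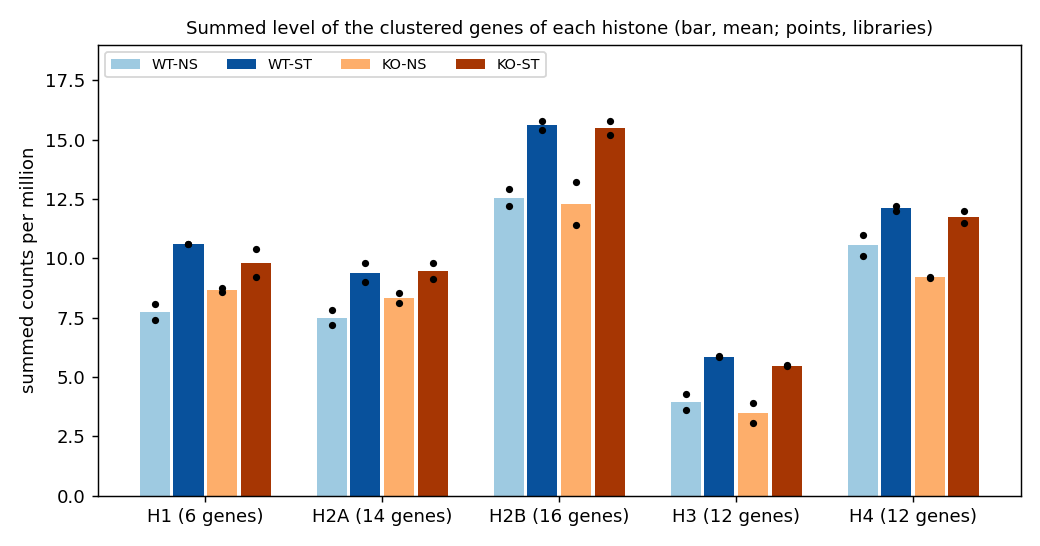
Summed CPM of the clustered genes of each histone, with bars at the mean of 2 libraries and points for the libraries, on an axis starting at 0. For each histone the treated libraries lie above the untreated libraries of the same genotype, with H3 lowest and H2B highest in every group.

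The annotated 3′ ends of the genes were compared by whether they held a poly(A) signal. Such a signal (AATAAA or ATTAAA) lying 10 to 40 bases before an annotated transcript end was found in 14 of the 60 genes, among them Hist1h1c, Hist1h4i, Hist3h2a, Hist3h2ba, Hist1h2ae and Hist2h2be. The window was set with the genes' values known, so the comparison is given as a description with no test. In IPO13+/+ cells none of these 14 rose and the median log2 fold change was 0.30, while 13 of the other 46 rose with a median of 0.63. In IPO13-/- cells 1 of the 14, Hist1h4i, rose and 1, Hist1h1c, fell (median 0.30), while 16 of the other 46 rose (median 0.68). Of all genes tested, 11.5% rose in IPO13+/+ and 14.9% in IPO13-/- cells. A set of 14 genes is too small to tell 0 or 1 rises from these shares. The summed level of the 14 was 21.9 ± 1.44 CPM in WT-NS and 23.7 ± 0.809 in WT-ST, a ratio of 1.08, and that of the 46 was 20.4 ± 1.11 and 29.9 ± 0.962 CPM, a ratio of 1.47 (SD, n = 2). In IPO13-/- cells the ratios were 1.04 and 1.46. In depth, the medians were 172 counts per gene for the 14 and 157 for the 46, but the 14 held 48.3% of all counts of the 60 genes and 6 of the 15 genes with 300 or more counts, and the part of depth was not tested. A signal could not be found where a gene model stops at the coding sequence. Of the 46, 16 models had under 50 bases after the stop codon, 12 of them none, and 1, the pseudogene Hist3h2bb-ps, had no annotated coding sequence. The 16 short models held 6 of the 13 rises in IPO13+/+ cells, among them Hist1h1a, Hist1h1b and Hist2h2bb, and 5 of the 16 in IPO13-/- cells. The 29 genes with 50 or more bases after the stop codon held 7 and 11 rises, with medians of 0.61 and 0.68 on the log2 scale. Hist1h2bc, which has 2 exons and high counts, had no stem-loop and no such signal in its annotated transcript, and its log2 fold changes of 0.16 ± 0.08 and 0.19 ± 0.08 (SE) did not pass the test.

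**Figure D5:**
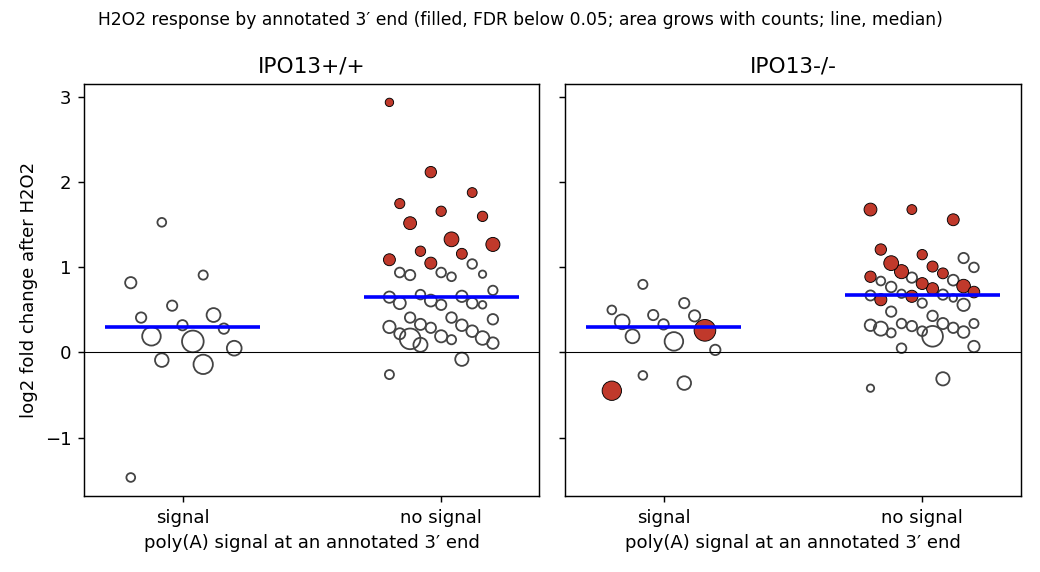
Log2 fold change after H2O2 of genes with and without a poly(A) signal at an annotated 3′ end, in each genotype, with filled points at FDR below 0.05, point area growing with counts and a line at the median. The filled points above 1 all lie among genes without the signal.

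RNAs that carry no poly(A) tail in their mature form were looked at beside this, after the histone values were seen. Rpph1, the RNA of ribonuclease P, had 605 and 851 counts in WT-NS and 1139 and 1168 in WT-ST, and 1077 and 1083 in KO-NS against 2087 and 2678 in KO-ST. It rose by 0.67 ± 0.12 (SE) on the log2 scale in IPO13+/+ cells (edgeR FDR 7.14e-05) and by 1.26 ± 0.10 in IPO13-/- cells (edgeR FDR 1.93e-10). Rnu11, an RNA of the minor spliceosome, had no counts in WT-NS, 10 and 6 in WT-ST, 1 and 0 in KO-NS and 4 and 12 in KO-ST. Rnu12, another RNA of that spliceosome, had no counts in WT-NS, 4 and 5 in WT-ST, 1 and 3 in KO-NS and 4 and 3 in KO-ST, and its log2 fold change in IPO13-/- cells of 0.89 ± 1.01 (SE) did not pass the test (edgeR FDR 0.586). Rnu11 and Rnu12 had 33 and 20 counts in all, most of them in treated libraries. Both passed a limit of 10 counts only through those libraries, so their higher counts after treatment are no separate support. Of 97 small nucleolar RNA rows with at least 10 counts, 5 rose and 6 fell in IPO13+/+ cells and 7 rose and 9 fell in IPO13-/- cells, with medians of 0.03 and 0.02. Of 61 microRNA rows at that limit, 0 rose and 3 fell in IPO13+/+ cells, and 1 rose and 1 fell in IPO13-/- cells. None of 6 small Cajal body RNA rows passed the test in either genotype. Of all genes tested, 11.5% rose in IPO13+/+ and 14.9% in IPO13-/- cells. The part of captured RNA without a poly(A) tail in the histone result was not tested.

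Few clustered histone genes passed the test between the genotypes. In untreated cells 3 of the 60 passed the test, or 5%, where 38.2% of all genes tested did, and 1 differed at least 2-fold, where 4.71% of all genes did. The 60 genes had a median of 157 counts over the 8 libraries, which limits what could be called in either comparison of the genotypes. The part of this depth was not tested. Hist1h1a was higher in IPO13-/- cells, with 78 and 71 counts against 54 and 53 (0.47 ± 0.18 SE, edgeR FDR 0.0389). Hist1h4i was lower, with 542 and 443 counts against 539 and 608 (-0.23 ± 0.07 SE, edgeR FDR 0.0141). Hist1h1t, which encodes the testis-specific H1, had 13 and 8 counts against 5 and 1 (1.76 ± 0.70 SE, edgeR FDR 0.0496). Each of these 3 calls was lost without KO-NS replicate 1, without KO-NS replicate 2 or without WT-NS replicate 2 (edgeR FDR 0.074 to 0.33). That of Hist1h1a was also lost without WT-NS replicate 1 (0.073), that of Hist1h1t without either WT-ST library (0.059), and that of Hist1h4i where libraries were scaled by their totals (0.12).

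In treated cells 4 of the 60, or 6.67%, passed the test, where 36.6% of all genes tested did, and 2 differed at least 2-fold, where 4.56% did. Hist1h1d was lower in KO-ST, with 89 and 83 counts against 129 and 132 (-0.49 ± 0.14 SE, edgeR FDR 0.0062). Hist2h2bb was lower as well, with 36 and 26 counts against 48 and 57 (-0.64 ± 0.24 SE, edgeR FDR 0.0394). For both genes the KO-ST libraries lay below both WT-ST libraries. Hist1h1t had 5 and 11 counts in KO-ST and 1 in each WT-ST library, a ratio of 8.72 with a 95% exact interval of 2.05 to 78.2 for counting error only (edgeR FDR 0.0144). Hist1h2aa, the gene for a testis-specific H2A, had no count in any of the 4 IPO13+/+ libraries, 4 and 1 in KO-NS and 6 and 2 in KO-ST. All 13 of its counts lay in IPO13-/- libraries, so it passed the limit of 10 counts through that genotype alone and had to differ. Of the other 59 genes, 3 passed the test in treated cells and 1 of them differed 2-fold. That 1 was Hist1h1t, which also passed the limit of 10 counts only through its IPO13-/- libraries. Against a floor of 3 counts over WT-ST, Hist1h2aa was at least 2.91-fold higher in KO-ST, while the exact 95% lower limit for counting error of both groups was 1.86 (edgeR FDR 0.0379). In untreated cells that lower limit was 0.964, below a ratio of 1, and the test was not passed. The calls of Hist2h2bb, Hist1h1t and Hist1h2aa were each lost without WT-ST replicate 1 or WT-ST replicate 2 (edgeR FDR 0.064 to 0.24), and that of Hist1h1d was kept without any single library. Those of Hist2h2bb and Hist1h2aa were also lost without either KO-NS library (0.053 to 0.06). Without KO-ST replicate 2 those of Hist2h2bb and Hist1h1t were lost (0.27 and 0.19), and without KO-ST replicate 1 that of Hist1h2aa (0.24). DESeq2 called none of the 60 in either comparison of the genotypes.

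Sequence before the start site is shown for 3 H1 genes that differed in response, Hist1h1a and Hist1h1b, which rose in both genotypes, and Hist1h1c, which did not. The 250 bases before the RefSeq start (GRCm38.p6) are in lower case, 5′ to 3′ on the gene's strand, with matches in capitals on either strand to the CCAAT box, the TATA motif TATAAA and the H1 motif AAACACA. A capital run can be the reverse complement of a motif.
Hist1h1a, chr13:23763418-23763667, plus strand: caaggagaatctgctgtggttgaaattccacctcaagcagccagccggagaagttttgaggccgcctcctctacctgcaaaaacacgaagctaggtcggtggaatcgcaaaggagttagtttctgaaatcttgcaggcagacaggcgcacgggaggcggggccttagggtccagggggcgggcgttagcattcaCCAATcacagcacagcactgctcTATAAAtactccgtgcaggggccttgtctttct
Hist1h1b, chr13:21780626-21780875, minus strand: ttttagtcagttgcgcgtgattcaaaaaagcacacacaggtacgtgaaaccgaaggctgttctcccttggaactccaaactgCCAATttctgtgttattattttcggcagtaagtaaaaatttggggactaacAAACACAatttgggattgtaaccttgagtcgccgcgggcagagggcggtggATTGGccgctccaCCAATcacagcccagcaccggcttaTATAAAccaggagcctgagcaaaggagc
Hist1h1c, chr13:23738557-23738806, plus strand: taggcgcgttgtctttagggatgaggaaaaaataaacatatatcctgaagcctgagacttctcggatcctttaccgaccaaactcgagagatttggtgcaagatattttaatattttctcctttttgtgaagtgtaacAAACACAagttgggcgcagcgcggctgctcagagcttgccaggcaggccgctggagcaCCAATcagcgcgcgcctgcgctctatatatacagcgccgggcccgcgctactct
The motif AAACACA, an element known from H1 promoters, was in the window of Hist1h1b and Hist1h1c and not in that of Hist1h1a, of which Hist1h1a and Hist1h1b rose. The windows of the other H1 genes, Hist1h1d, Hist1h1e and Hist1h1t, held it as well. Of these, Hist1h1d rose in both genotypes, Hist1h1e in IPO13-/- cells alone and Hist1h1t in neither. Promoter windows were found for 60 of the 68 clustered histone rows, of which 81.7% held the CCAAT box, 48.3% the TATA motif and 15% the H1 motif, where 33.8%, 12.4% and 6.25% of all 32851 promoter windows of this length held them. A match is a match of letters and not a measured binding site.

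None of the listed genes that make, process and remove histone mRNA passed the test with a 2-fold change after H2O2. Of 28 genes for transcription and 3′ end processing of histone mRNA, 1 rose and 4 fell after H2O2 in IPO13+/+ cells and 3 rose and 7 fell in IPO13-/- cells, with median log2 fold changes of -0.08 and -0.04. The falls were 14.3% and 25% of the list, where 13.8% and 14.4% of all genes tested fell. Slbp, the stem-loop binding protein, changed by -0.10 ± 0.04 (SE) in IPO13+/+ cells, which did not pass the test, and fell by 0.12 ± 0.04 in IPO13-/- cells (edgeR FDR 0.0413). Npat, the coactivator of histone gene transcription, fell by 0.14 ± 0.05 in IPO13+/+ cells (edgeR FDR 0.0381). Casp8ap2, a component of histone locus bodies, fell by 0.17 ± 0.05 in IPO13-/- cells (edgeR FDR 0.00831). Of 20 genes for histone mRNA decay, 2 rose and 6 fell in IPO13+/+ cells and 2 rose and 2 fell in IPO13-/- cells, falls of 30% and 10% of the list. Eri1, the exonuclease that trims the histone stem-loop, fell by 0.15 ± 0.04 in IPO13+/+ cells (edgeR FDR 0.00904) and by 0.19 ± 0.04 in IPO13-/- cells (edgeR FDR 0.00085).

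By median, the listed histone variants did not rise after H2O2. Of the 14 tested, 1 rose and 6 fell in IPO13+/+ cells, or 7.14% and 42.9%, where 11.5% and 13.8% of all genes tested did. In IPO13-/- cells 2 rose and 2 fell, or 14.3% each way, where 14.9% and 14.4% of all genes did. The medians were -0.11 and -0.04. H2afj rose in both genotypes, by 0.22 ± 0.06 (SE) on the log2 scale in IPO13+/+ and 0.23 ± 0.06 in IPO13-/- cells (edgeR FDR 0.00369 and 0.00223). H3f3a rose by 0.18 ± 0.04 in IPO13-/- cells (edgeR FDR 0.00119). H2afz fell by 0.19 ± 0.04 (SE) on the log2 scale in IPO13+/+ cells (edgeR FDR 0.000918), and H2afx fell by 0.15 ± 0.04 (edgeR FDR 0.00593). A larger fall was that of H1f0, an H1 gene, in both genotypes. It changed by -0.45 ± 0.05 in IPO13+/+ and -0.60 ± 0.05 in IPO13-/- cells (edgeR FDR 8.06e-08 and 4.34e-10). H3f3b changed by -0.04 ± 0.04 and -0.03 ± 0.04 in the 2 genotypes and did not pass the test. Of 24 histone chaperone and assembly genes, 2 rose and 6 fell in IPO13+/+ cells, or 8.33% and 25% of the list. In IPO13-/- cells 4 rose and 6 fell, or 16.7% and 25%.

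A list of 24 genes for G1/S cyclins and DNA replication marks cells in S phase. Of these, 1 rose and 5 fell in IPO13+/+ cells, or 4.17% and 20.8%, where 11.5% and 13.8% of all genes tested did. In IPO13-/- cells 7 rose and 7 fell, or 29.2% each way, where 14.9% and 14.4% of all genes did. None of the 24 changed by 2-fold after H2O2, and the medians were -0.02 and 0.04. The share of cells in S phase was not measured here, and more cells of 1 phase and more RNA per cell cannot be told apart in bulk RNA. E2f2, a regulator of S phase entry, was the only gene of this list to differ by 2-fold between genotypes, at 1.04 ± 0.06 (SE) higher on the log2 scale in KO-ST than in WT-ST (edgeR FDR 7.47e-14). The summed level of 8 fibroblast markers was 7.44 to 7.51 CPM in WT-NS and 8.59 to 9.32 in WT-ST, and 6.3 to 7.49 in KO-NS and 7.97 to 8.83 in KO-ST. Of them Col1a1 rose by 0.97 ± 0.12 in IPO13+/+ and by 0.64 ± 0.18 in IPO13-/- cells (edgeR FDR 5.42e-07 and 0.00655), and was lower in IPO13-/- than in IPO13+/+ cells by over 2-fold. Twist2 was lower in KO-ST, on counts of 2 and 0 against 6 and 9. Named here are only markers past 2-fold or changed with treatment. Of the 8 fibroblast markers, 0 were higher and 1 lower in untreated IPO13-/- cells. In treated cells 2 were higher and 2 lower. Of all genes tested, 38.2% and 36.6% differed between the genotypes in untreated and treated cells. The summed level of 7 trophectoderm markers was 92.6 to 102 CPM in WT-NS and 89 to 93.7 in WT-ST, 109 to 112 in KO-NS and 93.9 to 99.8 in KO-ST. In untreated IPO13-/- cells 2 of the 7 passed the test as higher and 2 as lower. Only Krt8, which was lower, passed 2-fold (-1.25 ± 0.08 SE, edgeR FDR 1.62e-12). The 7 primitive endoderm markers summed to 15.9 to 24.1 CPM over all libraries. Among the 10 ESC markers, 0 rose and 7 fell after H2O2 in IPO13+/+ cells, the falls being 70%. In IPO13-/- cells 3 rose and 6 fell, or 30% and 60%. None of these changes reached 2-fold, and the medians were -0.14 and -0.21. None of the listed markers was at 0 in every library, and their part in the histone result was not tested.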

How the data were processed

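RNA of 8 libraries (4 groups of 2) was prepared with a TruSeq mRNA kit and sequenced in pairs on an Illumina HiSeq. Per the labels, the authors' processing notes name bcl2fastq, STAR 2.3.1, HTSeq and limma with mm10, and the counting options are not given in the sources used here. The deposited counts are whole reads per gene, and the deposited CPM values match counts divided by library totals within 5e-04 and were not used further. CPM here were computed from the counts with TMM factors.

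Tests used edgeR 4.0.16 (glmQLFit and glmQLFTest) in R 4.3.3 on the 19424 genes with at least 1 count, with 4 group coefficients over all 8 libraries and Benjamini-Hochberg adjustment over all genes. The SE is the log2 fold change divided by the root of F. The script was tested on simulated data. Alternatives were limma-voom 3.58.1, DESeq2 1.42.0, RLE factors, library totals, filterByExpr (15191 genes), a replicate block, fits of the compared groups alone, and leaving out each library. Library totals of 60397877 to 73789079 counts give a floor of 3 counts, and intervals and floors cover counting error only. Replicates of each group differed by more than sampling noise (chi-square per gene of 2.26 to 15).

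Gene models came from GENCODE M21 (GRCm38) and promoter windows from RefSeq. All 68 symbols matched GENCODE. Genes were named by a rule: the 3 highest per histone by level, the 3 largest passing rises and falls per comparison, genes past 2-fold (by count and range where over 12), the listed histone pathway genes past 2-fold with Slbp, Npat, Casp8ap2, Eri1 and the 3 highest variants, and Ipo13. The members, lists and windows were chosen with earlier results of these data known. Of the histone variant list, H3f3c was not used here and H1fnt had no counts.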

Additional observations from a re-analysis of the deposited data

Results flagged for a closer look

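The rise of Rpph1 after H2O2, given beside the histone result, was larger in IPO13-/- than in IPO13+/+ cells by 0.59 ± 0.16 (SE, n = 2 per group) on the log2 scale, by the test of the difference between the responses (edgeR FDR 0.0354). None of the 60 clustered histone genes passed that test.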

How the results depend on the processing

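In IPO13+/+ cells the 13 rises after H2O2 stayed within 1.5 times under every alternative run, at 10 to 13 when each library was left out in turn (2-fold: 10 to 13). In IPO13-/- cells the 17 rises became 11 with limma-voom and 7 with DESeq2, and 6 to 19 with a library left out. The 7 rises of at least 2-fold became 4 with DESeq2 and 4 to 7 with a library left out. Between genotypes in untreated cells, the 2 higher genes became 0 with DESeq2 and 4 with library totals, the 1 lower gene became 0 with DESeq2, 0 with library totals and 2 with the replicate block, and the 1 gene past 2-fold became 2 with limma-voom and 0 with DESeq2. With a library left out these counts were 0 to 2, 0 to 2 and 0 to 1. In treated cells, the 2 higher genes became 0 with DESeq2, 1 with filterByExpr and 4 with the replicate block, the 2 lower genes became 1 with limma-voom and 0 with DESeq2, and the 2 genes past 2-fold became 0 with DESeq2 and 1 with filterByExpr. With a library left out these were 0 to 3, 1 to 2 and 0 to 2. The difference between responses gave 0 calls under every alternative. With a library left out, the lone library of its group is assumed to vary like the other groups. The cause of these shifts was not tested. Of 523 refitted fold changes of named genes, 440 kept their call, 83 lost it and 0 changed sign.

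The replicate numbers are not shown to pair the samples in every pair of groups: correlations of same-numbered deviations were 0.28 to 0.57 among WT-NS, KO-NS and KO-ST and -0.06 to 0 with WT-ST. With the block, 15 genes rose in IPO13+/+ and 20 in IPO13-/- cells. Members numbered 61 at 1 count or more and 53 at 50 or more. The share held by the 10 highest members was 67.4% without division by length, and the median share of words at other loci was 43.5% with 50-base words. The median of 157 counts per member over 8 libraries limits what could be called, and no called rise in IPO13+/+ cells was under 2-fold.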
